A study of Mus musculus with 4 samples.

Results

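Transcripts of 10 genes that govern entry into the cell cycle were described in mouse thymocytes. The genes were the D cyclins Ccnd1, Ccnd2 and Ccnd3, the E cyclins Ccne1 and Ccne2, the kinases Cdk2, Cdk4 and Cdk6, the retinoblastoma gene Rb1 and the transcription factor gene E2f1. They were chosen by name, as genes of 1 pathway, and all 10 were found among the 31053 genes of the 4 single-cell matrices. Cells with more than 500 genes and under 10% mitochondrial UMIs (unique molecular identifiers, each standing for 1 captured transcript) were kept. They were divided by detection of Cd4, Cd8a and Il2ra, which follow thymocyte maturation, and into cycling cells, with at least 1 UMI of Mki67 or Top2a, and non-cycling cells, with 0 UMIs of both.

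D cyclins bind Cdk4 or Cdk6 in response to growth signals, and these kinases phosphorylate the retinoblastoma protein, which otherwise holds E2F factors in check. Released E2F induces genes of DNA replication, among them the E cyclins, which bind Cdk2 and carry the cell into S phase. In the thymus, early double-negative (DN) cells lack both coreceptors, those that carry the interleukin-2 receptor alpha chain Il2ra rearrange the T-cell receptor beta gene, and the double-positive (DP) cells that follow carry both Cd4 and Cd8a. Ccnd3 is known to be needed for the burst of division between these stages.

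The libraries came from 1 wild-type (WT) FVB/N mouse of 6 weeks, 1 preleukemic Tal1/Lmo2 mouse of 6 weeks, and 2 Tal1/Lmo2 mice with T-cell acute lymphoblastic leukemia at 3 months per the labels (T-ALL#1 and T-ALL#2). The Tal1 and Lmo2 transgenes are driven by the proximal Lck promoter, which acts in thymocytes, and all 4 samples were viable single cells sorted from thymus after lysis of red cells. With 1 animal in the WT and in the preleukemic group, no test between groups was run, since the spread would rest on the 2 leukemias alone, and age cannot be told apart from leukemia. Kept cells numbered 4220, 5576, 5773 and 1975 in the order WT, preleukemic, T-ALL#1 and T-ALL#2, with 24042062 to 70745712 UMIs a library and medians of 3800.5, 4888, 8742 and 17581 UMIs a cell. Endogenous and transgenic Tal1 were not told apart, and Tal1 stood at 0 UMIs per 1000000 UMIs (CPM) in WT and at 409.6, 68.3 and 234 CPM in the transgenic libraries. Lmo2, the other transgene, stood at 0.915 CPM in WT, 4.48 in the preleukemic mouse, and 0.368 and 0.276 in T-ALL#1 and T-ALL#2. The label would give higher values in the leukemias than in WT, which was not seen. Endogenous and transgenic Lmo2 were not told apart either. No counting intervals are given for Lmo2, so the low values of WT and the leukemias cannot be ordered beyond counting error. Whether the leukemias expressed the Lmo2 transgene was not tested. Xist and Y-linked genes went against the labelled sex in WT and the preleukemic library, both labelled male, with Xist at 1380 and 1869 CPM and 1 and 5 UMIs of 4 Y-linked genes. T-ALL#1 had Xist at 1932 CPM and 1 UMI of the Y-linked genes, but T-ALL#2 had 0.0828 CPM and 4413 UMIs. Sex by these genes thus cannot be told apart from the animal in comparisons of T-ALL#2 with any other library. Pairs of libraries shared 0 to 9 cell barcodes. All 8 thymocyte markers looked for had UMIs in every library, and their summed level was 7872, 6185, 5310 and 2736 CPM in the order of the cells above. Cd3d, Cd3e, Cd3g, Lck and Thy1 had at least 127 CPM in each, but Trbc1 had 0.662 CPM in T-ALL#2 against 1121 to 2995 in the others, Cd8b1 ran from 113 in T-ALL#2 to 894 in WT, and Ptcra from 8.69 in the preleukemic mouse to 177 in T-ALL#1. The part of these differences in the results was not tested. B-like cells numbered at most 8 and myeloid-like cells at most 7 in a library. T-ALL#2 was also the only matrix deposited without cell calling, so that difference cannot be told apart from the animal.

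The D cyclins differed more between libraries than the other members did. Ccnd2 (chromosome 6, 127125162 to 127152193, minus strand, GRCm38) stood at 417 CPM in WT, 53.5 in the preleukemic mouse, and 11.9 and 21.9 in T-ALL#1 and T-ALL#2. The WT level thus exceeded that of the preleukemic mouse 7.78-fold, that of T-ALL#1 35.1-fold and that of T-ALL#2 19.0-fold. Ccnd3 (chromosome 17, 47505051 to 47599691, plus strand) stood at 808 CPM in WT, 349.6 in the preleukemic mouse, and 591 and 143 in T-ALL#1 and T-ALL#2. The order of the libraries was not that of Ccnd2, since T-ALL#1 exceeded the preleukemic library 1.69-fold (95% interval 1.66 to 1.72) and T-ALL#2 4.13-fold (4.01 to 4.25). Intervals of levels and ratios here are exact and cover counting error only, not the spread between animals. In a summed library, fewer cells of a type and less RNA per cell cannot be told apart.

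Ccnd1 (chromosome 7, 144929931 to 144939925, minus strand) had few UMIs in WT and the preleukemic library. It stood at 4.78 CPM in WT, 4.46 in the preleukemic mouse, and 8.23 and 35.6 in T-ALL#1 and T-ALL#2. The WT and preleukemic values did not differ beyond counting error (ratio 0.931, 0.733 to 1.19), whereas T-ALL#2 lay 7.45-fold above WT (6.15 to 9.09). Of the 115 Ccnd1 UMIs in WT, 16 lay in 7 myeloid-like cells. In T-ALL#2, barcodes with under 100 UMIs, which hold free RNA, carried Ccnd1 at 19.3 CPM (13.4 to 26.8), Ccnd2 at 14.3 CPM (9.36 to 21.0) and Ccnd3 at 122 CPM (107 to 139.6). The cells of T-ALL#2 thus exceeded the free RNA in Ccnd1, whereas the intervals of cells and free RNA overlapped for Ccnd2 and Ccnd3. The part of free RNA in these levels was not tested, and the matrices of the other 3 libraries hold called cells alone.

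**Figure D1:**
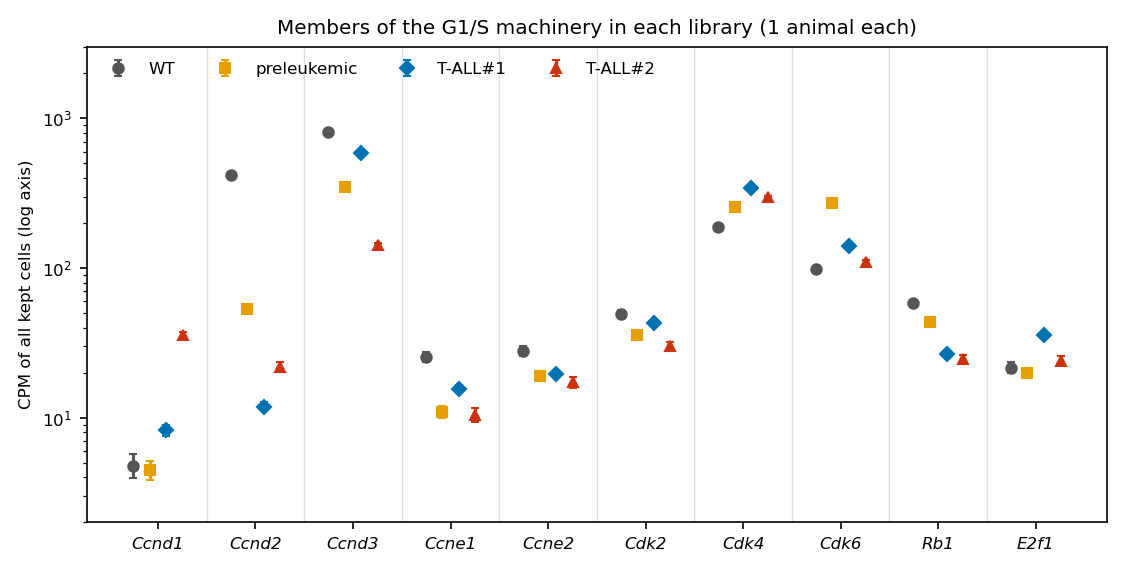
CPM of the 10 members over all kept cells of each library on a log axis, with exact 95% Poisson intervals of the UMI counts as bars (often smaller than the symbol). Ccnd2 ranges from 417 CPM in WT to 11.9 in T-ALL#1, Ccnd1 is highest in T-ALL#2 at 35.6 CPM, and Cdk6 is highest in the preleukemic library at 272 CPM.

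The partition of D-cyclin UMIs differed accordingly. Ccnd2 made up 33.9% of all D-cyclin UMIs in WT (33.3 to 34.4), 13.1% in the preleukemic mouse (12.6 to 13.7), 1.94% in T-ALL#1 (1.81 to 2.08) and 10.9% in T-ALL#2 (10.2 to 11.7). Ccnd3 held 65.7%, 85.8%, 96.7% and 71.3% in the same order. Ccnd1 accounted for 0.389% in WT, 1.09% in the preleukemic library and 1.35% in T-ALL#1 but for 17.8% (16.9 to 18.7) in T-ALL#2. Shares are compared between libraries, since UMIs of different genes need not be captured alike.

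In cycling cells the Ccnd2 share was lower in the first 3 libraries. In WT it fell from 45.5% of D-cyclin UMIs in non-cycling to 18.2% in cycling cells, in the preleukemic mouse from 19.1% to 6.37% and in T-ALL#1 from 2.93% to 1.44%. In T-ALL#2 the values were 11.1% (9.66 to 12.6) and 10.9% (10.1 to 11.7), with overlapping intervals.

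**Figure D2:**
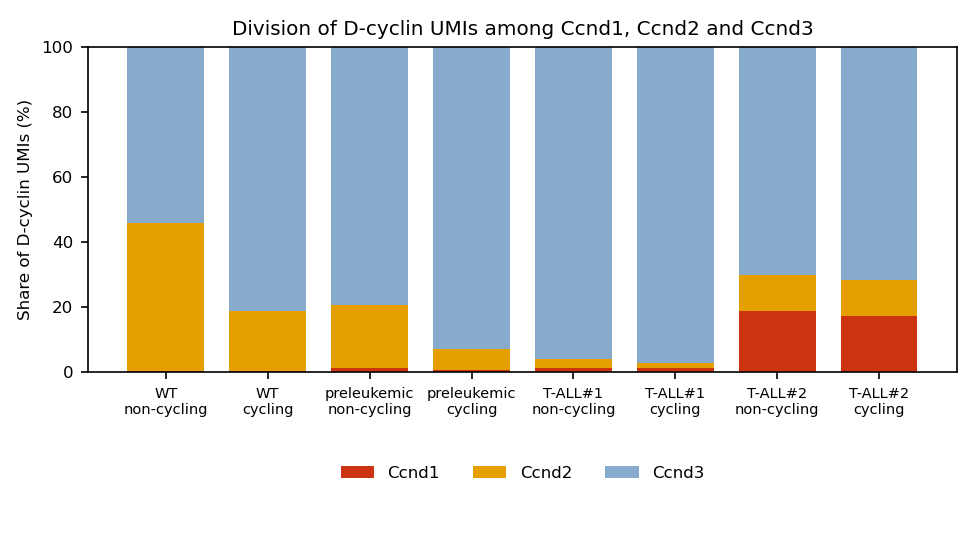
Share of D-cyclin UMIs (percent) held by Ccnd1, Ccnd2 and Ccnd3 in non-cycling and cycling cells of each library, as stacked bars from 0 to 100%. Ccnd2 falls from 45.5% to 18.2% in WT, and Ccnd1 takes 18.9% and 17.4% in T-ALL#2, against at most 1.48% in any bar of the other 3 libraries.

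Depth differed between the libraries, so each cell was also thinned to 2000 UMIs, which left out 991 WT, 350 preleukemic, 94 T-ALL#1 and 0 T-ALL#2 cells. After thinning, 31.4% of WT cells carried Ccnd2, against 6.72% of preleukemic, 1.57% of T-ALL#1 and 4.00% of T-ALL#2 cells. The unthinned shares were 31.8%, 11.4%, 5.37% and 23.1%. Thinned shares for Ccnd3 were 64.7%, 46.6%, 66.7% and 24.0%, and those for Ccnd1 were 1.15%, 1.11%, 1.16% and 6.13% in the same order. Any D cyclin was found in 81.8% of thinned WT cells, 51.0% of preleukemic, 68.2% of T-ALL#1 and 32.2% of T-ALL#2 cells. Both Ccnd2 and Ccnd3 were seen in 14.4% of thinned WT cells but in at most 2.72% of those of any transgenic library.

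By stage, non-cycling DP cells of WT had the lowest Ccnd2 and the highest Ccnd3 level. Ccnd2 stood at 234.6 CPM in these DP cells and reached 658 CPM in Il2ra-detected DN cells, 681 in DN cells without Il2ra, 600.3 in cells with Cd8a alone and 930.0 in cells with Cd4 alone. Ccnd3 was highest in the same DP cells at 1252 CPM, and stood at 169.8, 339, 530.1 and 313 CPM in the other classes in that order. The 54 Il2ra-detected DN cells of WT are few, with 34 of them non-cycling. Detection of a stage gene depends on depth, so a cell of low depth can be placed in a DN class for want of a UMI.

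By detection, the preleukemic thymus held few DP cells, 201 of 5576, against 49.7% of cells in WT. The DN class without Il2ra held 63.1% of preleukemic cells. The study reported lower Cd4 and Cd8a mRNA in preleukemic thymocytes, which were still found in its DP clusters. A class by detection therefore need not hold the same stages in WT and the preleukemic library. Non-cycling preleukemic cells carried Ccnd2 at 566 CPM where Cd4 alone was detected, from 30 cells. They carried it at 121 CPM in Il2ra-detected DN cells and at 22.4 CPM in DP cells, from 14 UMIs. Against WT, the preleukemic Ccnd2 level was 5.44-fold lower in non-cycling Il2ra-detected DN cells and 13.4-fold lower in the DN class without Il2ra. The lower Ccnd2 level of the preleukemic library therefore also appeared within these classes by detection. Where Cd4 alone was detected, the difference was 1.64-fold.

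In T-ALL#1, non-cycling cells carried Ccnd2 at 0.877 CPM in DP cells (7 UMIs) and at 60.9 CPM in Il2ra-detected DN cells (66 UMIs). T-ALL#2 lay between 10.3 and 30.7 CPM in all 5 classes of non-cycling cells, a narrower range than in any other library. Ccnd1 in T-ALL#2 likewise lay between 26.3 and 41.1 CPM in these classes. Free RNA of T-ALL#2 carried the stage genes too, with Il2ra at 133 CPM, Cd8a at 89.3 and Cd4 at 10.5. The part of free RNA in the narrow ranges was not tested. In T-ALL#1, Ccnd1 ran from 5.13 CPM in non-cycling DP cells to 23.6 CPM in the DN class without Il2ra. Ccnd3 was highest in DP cells among the non-cycling classes of every library, at 482 CPM in the preleukemic mouse, and 1035 and 192.5 in T-ALL#1 and T-ALL#2. In T-ALL#2 its interval overlapped that of the DN class without Il2ra, at 188 CPM.

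**Figure D3:**
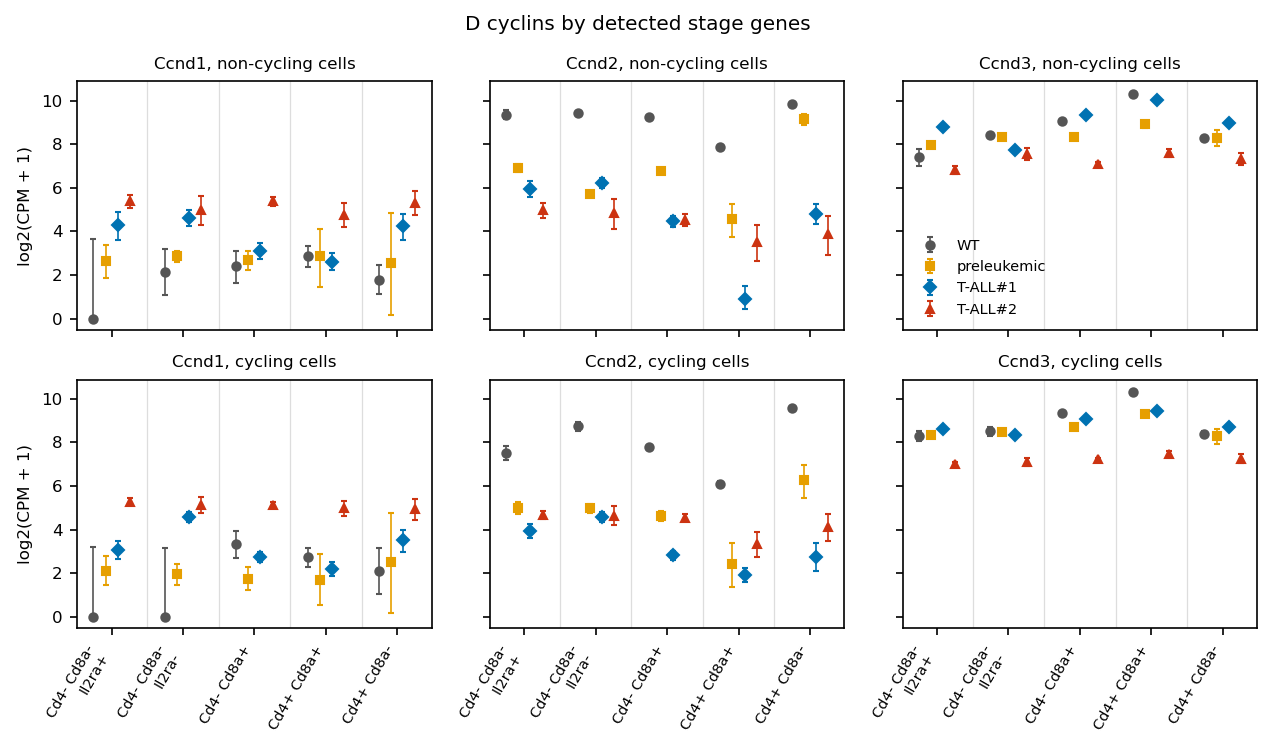
Ccnd1, Ccnd2 and Ccnd3 as log2(CPM + 1) in non-cycling (top) and cycling cells (bottom) of 5 classes by detection of Cd4, Cd8a and Il2ra, with exact 95% Poisson intervals as bars. WT has the highest Ccnd2 in every class, Ccnd3 peaks in Cd4+ Cd8a+ cells, and T-ALL#2 has the highest Ccnd1 point in every class.

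Of the D-cyclin partners, Cdk4 was higher over all kept cells of the transgenic libraries than in WT, and Cdk6 was unevenly spread. Cdk4 (chromosome 10, 127063534 to 127067920, plus strand) stood at 187 CPM in WT, 257 in the preleukemic mouse, and 342 and 299 in T-ALL#1 and T-ALL#2. In CPM no pair of libraries differed 2-fold in Cdk4, the largest ratio being 1.83 (1.78 to 1.89) for T-ALL#1 over WT. Non-cycling Il2ra-detected DN cells had Cdk4 at 275 CPM in WT, 221 in the preleukemic mouse, and 269 and 260 in T-ALL#1 and T-ALL#2. The higher Cdk4 level was thus not seen in this class. Non-cycling DP cells had Cdk4 at 90.9 CPM in WT, 141 in the preleukemic mouse, and 198 and 192 in T-ALL#1 and T-ALL#2. Cdk6 (chromosome 5, 3341485 to 3531008, plus strand) stood at 98.4 CPM in WT, 272 in the preleukemic mouse, and 141 and 110.0 in T-ALL#1 and T-ALL#2. The preleukemic level was 2.77-fold that of WT (2.65 to 2.89) and 2.48-fold that of T-ALL#2.

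The preleukemic Cdk6 level was not higher than that of WT within Il2ra-detected DN cells. Among the non-cycling cells of this class, Cdk6 stood at 775 CPM in WT (251 UMIs), 484 in the preleukemic mouse, and 161 and 122 in T-ALL#1 and T-ALL#2. In the DN class without Il2ra the order turned, with 52.1 CPM in WT, 365 in the preleukemic mouse, and 200.001 and 85.9 in T-ALL#1 and T-ALL#2. That class need not hold the same stages in WT and the preleukemic library, as stated above. DP cells lay close together, at 69.4, 68.8, 102 and 92.0 CPM in the same order, and the WT and preleukemic values did not differ beyond counting error (ratio 0.992, 0.704 to 1.37). In free RNA of T-ALL#2, Cdk6 stood at 93.2 CPM (79.6 to 108) and Cdk4 at 178 CPM (159 to 199). Thinned to 2000 UMIs, 11.9% of WT, 34.1% of preleukemic, 19.8% of T-ALL#1 and 17.9% of T-ALL#2 cells carried Cdk6, and 21.8%, 29.3%, 39.1% and 38.8% carried Cdk4.

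**Figure D4:**
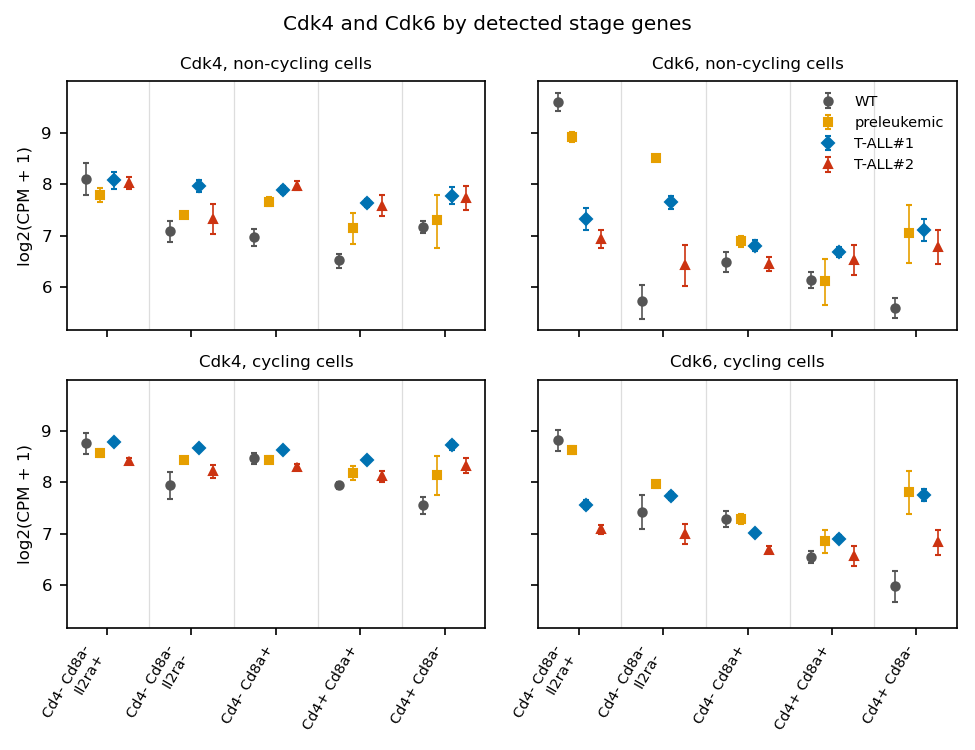
Cdk4 and Cdk6 as log2(CPM + 1) in non-cycling (top) and cycling cells (bottom) of the 5 classes, with exact 95% Poisson intervals as bars. Cdk6 of WT runs from 775 CPM in non-cycling Il2ra-detected double-negative cells to 47.5 CPM in cells with Cd4 alone, whereas Cdk4 spans less than Cdk6 in each panel of WT.

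Of the E cyclins, Cdk2, Rb1 and E2f1, only Ccne1 and Rb1 differed 2-fold between any pair of libraries in CPM. Ccne1 (chromosome 7, 38097984 to 38107534, minus strand) stood at 25.6 CPM in WT, 10.9 in the preleukemic mouse, and 15.5 and 10.4 in T-ALL#1 and T-ALL#2. Its preleukemic level was 2.34-fold lower than in WT, but 1.11-fold lower among non-cycling cells, where it stood at 3.33 and 3.69 CPM. Among cycling cells Ccne1 stood at 52.6 CPM in WT and 20.0 in the preleukemic library. Ccne2 (chromosome 4, 11191351 to 11204779, plus strand) stood at 27.8, 19.1, 19.6 and 17.2 CPM in the same order. The last 3 values lay within a factor of 1.14, and the interval of the ratio of T-ALL#1 to the preleukemic library held 1 (0.941 to 1.12).

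Cdk2 (chromosome 10, 128697939 to 128705031, minus strand) stood at 49.4 CPM in WT, 35.9 in the preleukemic mouse, and 42.9 and 30.2 in T-ALL#1 and T-ALL#2. Rb1 (chromosome 14, 73183673 to 73325822, minus strand) stood at 58.4, 43.4, 26.5 and 24.8 CPM in that order, and both leukemias lay over 2-fold below WT. The Rb1 values of the leukemias did not differ beyond counting error (ratio 1.07, 0.989 to 1.16). E2f1 (chromosome 2, 154559407 to 154569892, minus strand) stood at 21.6, 19.8, 35.8 and 24.1 CPM, with T-ALL#1 above every other library. Rb1 overlaps Gm17233 and Mir687 on its own strand, and no other member has a same-strand overlap with another annotated gene.

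Differences of at least 2-fold were counted among the members and among all genes. Of the 9 members with at least 10 CPM in either library, Cdk6 in the preleukemic mouse was at least 2-fold above WT, beside 4.46% of 8417 genes. Ccnd2, Ccnd3 and Ccne1 were at least 2-fold lower, beside 4.88% of these genes. Ccnd2 alone lay at least 2-fold under the preleukemic level in both leukemias, beside 10.9% of 8173 genes, and no member was higher, beside 2.28%. Against WT, Ccnd2 and Rb1 were lower in both leukemias, beside 12.2% of 8197 genes, and 0 members were higher, beside 2.82%. Between the leukemias, Ccnd1 was higher in T-ALL#2, beside 1.35% of 7627 genes, and Ccnd3 lower, beside 7.97%. TMM factors, which centre the bulk of genes, would raise log2 ratios of T-ALL#2 by 0.50 against the preleukemic library and 0.55 against WT, and those of T-ALL#1 by 0.26 and 0.31. With them no member passed 2-fold in both leukemias against the preleukemic library, as the Ccnd2 difference in T-ALL#2 went from -1.29 to -0.79 on the log2 scale. Against WT, Rb1 no longer passed with them, at -0.83 in T-ALL#1 and -0.68 in T-ALL#2, and Cdk4 did, at 1.18 and 1.23.

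Cycling cells were compared with non-cycling cells within each animal. They made up 20.6% of WT, 23.8% of preleukemic, 47.9% of T-ALL#1 and 61.9% of T-ALL#2 cells. At 2000 UMIs a cell the shares were 18.2%, 14.0%, 31.4% and 28.3%. Cells of T-ALL#2 alone had to hold at least 3416 UMIs, more than the median of 3280 in non-cycling WT cells. The part of this limit in the cycling shares was not tested. UMIs were summed per library and state and tested over 11856 genes with edgeR's quasi-likelihood test, with the library as a block. Of the 10 members, 6 were higher in cycling cells at an adjusted p under 0.05, beside 26.1% of all genes, and 1 was lower, beside 26.6%. Cycling cells had more UMIs than non-cycling cells in every library, with medians of 9866.5 against 3280 in WT and 22654 against 11194 in T-ALL#2, and the part of depth in the results was not tested beyond the thinned values given here.

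The E cyclins rose most. Ccne2 stood at 60.4 CPM in cycling and 1.43 in non-cycling cells of WT, 38.9 and 2.52 in the preleukemic library, 26.0 and 2.56 in T-ALL#1, and 21.5 and 4.39 in T-ALL#2. Every cycling value lay above every non-cycling value, and the fitted log2 difference was 3.88 (SE 0.45, n = 4 libraries, edgeR adjusted p = 0.000987). Ccne1 stood at 52.6 against 3.69 CPM in WT, 20.0 against 3.33 in the preleukemic library, 20.6 against 1.83 in T-ALL#1 and 12.9 against 3.07 in T-ALL#2. It rose by 3.23 (SE 0.30, edgeR adjusted p = 0.000481) on the log2 scale. With cells thinned to 2000 UMIs, the Ccne2 ratios went from 42.3 to 18.2 in WT and from 4.90 to 2.87 in T-ALL#2.

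E2f1 and Cdk2 rose too. E2f1 stood at 42.3 against 4.82 CPM in WT, 35.0 against 7.06 in the preleukemic library, 45.3 against 10.3 in T-ALL#1 and 28.7 against 10.4 in T-ALL#2 (log2 difference 2.41, SE 0.27, edgeR adjusted p = 0.000872). Cdk2 stood at 77.4 against 26.6 CPM, 49.8 against 24.2, 48.5 against 27.8 and 34.0 against 19.0 in the same order (1.23, SE 0.14, edgeR adjusted p = 0.000614). The groups of cycling and non-cycling values did not overlap for either gene. In all 4 of Ccne1, Ccne2, E2f1 and Cdk4 the smallest cycling ratio was that of T-ALL#2, and whether the ratios differ between libraries was not tested. Free RNA of T-ALL#2 carried E2f1 at 30.9 CPM (23.3 to 40.1), Ccne1 at 8.27 and Ccne2 at 11.6, each above the level of non-cycling cells. It also carried Mki67 at 152 CPM and Top2a at 147, the genes that define cycling cells. The part of free RNA in the ratios was not tested.

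Cdk4 rose in cycling cells of every library, and Cdk6 did not pass the test. Cdk4 stood at 266 against 123 CPM in WT, 347 against 181.5 in the preleukemic library, 387 against 223 in T-ALL#1 and 319 against 237 in T-ALL#2 (log2 difference 0.99, SE 0.15, edgeR adjusted p = 0.00141). Cdk6 had ratios of 1.46, 0.775, 1.19 and 1.17, so that the preleukemic library alone lay below 1 (log2 difference 0.33, SE 0.14, edgeR adjusted p = 0.0756). Without the preleukemic library Cdk6 passed, at 0.48 (edgeR adjusted p = 0.0221). Among DP cells alone it passed with all 4 libraries, at 0.50 (edgeR adjusted p = 0.00891), and among Il2ra-detected DN cells alone the difference was -0.083 (edgeR adjusted p = 0.689).

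D cyclins did not rise as the E cyclins did. Ccnd2 was lower in cycling cells, with 213 against 581 CPM in WT, 26.7 against 76.0 in the preleukemic library, 7.97 against 22.3 in T-ALL#1 and 21.7 against 22.4 in T-ALL#2. The fitted log2 difference was -0.98 (SE 0.23, edgeR adjusted p = 0.0124). That call was lost without the preleukemic library (edgeR adjusted p = 0.0586), with no filter on low counts (0.0727), with the leukemias alone (0.289) and in the thinned cells (0.0886). With no replicate block it was lost too (edgeR adjusted p = 0.615). Within DP cells the value was -0.92 (edgeR adjusted p = 0.197). Within Il2ra-detected DN cells Ccnd2 passed, at -1.48 (edgeR adjusted p = 0.000262). The Ccnd2 call was also kept with DESeq2 (adjusted p = 7.81e-05) and with the upper limit on genes (edgeR adjusted p = 0.0139). It was kept too where cycling cells had to carry both Mki67 and Top2a (-1.80, edgeR adjusted p = 0.00724). Ccnd3 had ratios of 1.37 in WT, 1.23 in the preleukemic mouse, and 0.740 and 1.01 in T-ALL#1 and T-ALL#2 and did not pass (0.26, SE 0.16, edgeR adjusted p = 0.211). Its interval in T-ALL#1 was 0.725 to 0.755, and that in T-ALL#2 held 1 (0.947 to 1.08). Ccnd1 did not pass either (-0.16, SE 0.19, edgeR adjusted p = 0.503), and its value turned to 0.012 without the preleukemic library.

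Rb1 stood at 62.1 against 55.4 CPM in WT, 40.4 against 45.9 in the preleukemic library, 27.3 against 24.5 in T-ALL#1 and 26.7 against 19.0 in T-ALL#2. The fit gave a log2 difference of 0.32 (SE 0.10, edgeR adjusted p = 0.0264), the smallest among the members that passed. The call was lost without WT (edgeR adjusted p = 0.0810), without T-ALL#1 (0.112), without T-ALL#2 (0.0958) and with DESeq2 (0.0562). It was also lost with no replicate block (edgeR adjusted p = 0.583) and in Il2ra-detected DN cells alone (0.271). The Rb1 call was kept in DP cells alone (0.38, edgeR adjusted p = 0.0240) and in thinned cells (0.45, edgeR adjusted p = 0.00992). It was kept too where cycling cells had to carry both Mki67 and Top2a (0.43, edgeR adjusted p = 0.0127).

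**Figure D5:**
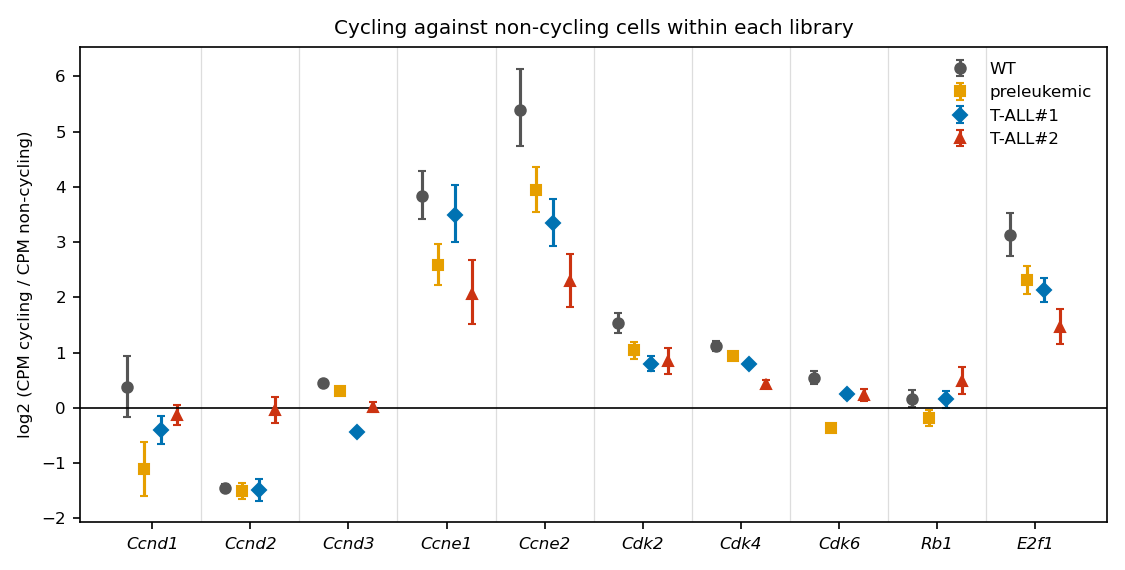
log2 of the CPM in cycling over that in non-cycling cells for each member and library, with exact 95% intervals that cover counting error only; the line at 0 marks equal levels. Ccne1, Ccne2, Cdk2, Cdk4 and E2f1 lie above 0 in all 4 libraries, and Ccnd2 lies at -1.45, -1.51 and -1.49 in WT, the preleukemic library and T-ALL#1 but at -0.04 in T-ALL#2.

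Promoter sequences of 2 kinases that rose in cycling cells, Cdk4 and Cdk2, and of Ccnd3, which did not pass, are shown for the 250 bases before the gene start, from RefSeq (GRCm38.p6). RefSeq promoters were found for 6 of the 10 members. Capitals mark matches to the E-box CACGTG, known as the site of Myc and its relatives, or to the E2F forms TTTCCCGC, TTTCGCGC, TTTGCCGC and TTTGGCGC on either strand. These motifs were chosen with the sequences in view. The windows lie at chr10:127063285-127063534 (plus strand) for Cdk4, chr10:128705052-128705301 (minus strand) for Cdk2 and chr17:47504801-47505050 (plus strand) for the upstream start of Ccnd3.
Cdk4: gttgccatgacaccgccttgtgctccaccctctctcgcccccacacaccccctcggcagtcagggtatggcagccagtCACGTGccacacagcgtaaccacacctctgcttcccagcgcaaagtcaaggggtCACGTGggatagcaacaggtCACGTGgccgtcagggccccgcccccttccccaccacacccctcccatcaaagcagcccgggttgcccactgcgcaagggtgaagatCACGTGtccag
Cdk2: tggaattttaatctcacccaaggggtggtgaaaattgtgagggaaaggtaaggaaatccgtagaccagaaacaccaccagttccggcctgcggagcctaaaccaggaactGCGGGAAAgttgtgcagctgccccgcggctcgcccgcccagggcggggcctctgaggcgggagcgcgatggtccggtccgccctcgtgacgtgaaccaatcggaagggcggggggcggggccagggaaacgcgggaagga
Ccnd3: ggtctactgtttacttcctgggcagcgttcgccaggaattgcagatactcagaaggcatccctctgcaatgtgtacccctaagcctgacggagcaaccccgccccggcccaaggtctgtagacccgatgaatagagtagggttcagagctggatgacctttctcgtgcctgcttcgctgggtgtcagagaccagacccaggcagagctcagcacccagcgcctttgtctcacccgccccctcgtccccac
Cdk4 held 4 E-boxes, which begin 172, 118, 98 and 11 bases before the start, and 0 E2F matches. At least 1 E-box was present in 6.02% of 32851 RefSeq promoters of this length and at least 4 in 0.0213%. Cdk2 held 1 E2F match beginning 140 bases before the start, and 1.86% of promoters held at least 1. The Ccnd3 window held neither motif. Of the windows not shown, those of Ccne1 and E2f1, which rose more than either kinase, held neither motif. That of Cdk6, which did not pass, held 1 E-box beginning 220 bases before the RefSeq start. The E2f1 and Cdk6 windows lay with all 250 bases inside the GENCODE gene, past its annotated start, and the Ccne1 window with 44. The bases before the GENCODE start of E2f1 and Cdk6 were thus not searched. A match is a string of letters and not a measured binding site.

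Genes that act with the members were read from a list of 27 partners, of which 26 passed the filter on low counts. In cycling cells 17 of them were higher and 2 lower, with a median log2 difference of 0.99 against -0.04 over all genes. The largest increases were those of Ccna2, the S and G2 phase cyclin, at 5.46 (SE 0.26, edgeR adjusted p = 0.000111), and E2f8, a repressor of E2F targets, at 5.39 (SE 0.30, edgeR adjusted p = 0.000130). Rbl2, a retinoblastoma relative of resting cells, fell by 1.18 (SE 0.12, edgeR adjusted p = 0.000377), and the kinase inhibitor gene Cdkn1b fell by 0.88 (SE 0.10, edgeR adjusted p = 0.000582). All 20 genes of a list of E2F-driven replication genes were higher, with a median of 2.42. Among them Rrm2, a subunit of ribonucleotide reductase, rose by 4.56 (SE 0.53, edgeR adjusted p = 0.00105), and Cdc45, a part of the replicative helicase, by 3.96 (SE 0.26, edgeR adjusted p = 0.000215). The list's own median exceeded that of the members, 0.66.

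Stage was compared within animals among non-cycling cells, Il2ra-detected DN against DP. Of 8702 genes 278 were higher (3.19%) and 188 lower (2.16%), and 8 members passed the filter on low counts, since Ccne1 and Ccne2 did not. Cdk4 alone passed the test. It stood at 275 CPM in Il2ra-detected DN and 90.9 in DP cells of WT, 221 and 141 in the preleukemic library, 269 and 198 in T-ALL#1 and 260.0 and 192 in T-ALL#2. Il2ra-detected DN cells were thus higher in each animal, by 0.88 on the log2 scale (SE 0.20, edgeR adjusted p = 0.0362). The call was lost without the preleukemic library (edgeR adjusted p = 0.133), which also left 4 genes higher and 3 lower in all, and without T-ALL#2 (0.0819), which left 77 and 61. Cdk4 also did not pass with no replicate block (edgeR adjusted p = 0.561), with the leukemias alone (0.101) and among cycling cells (0.0665).

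Several members had one direction in every animal and did not pass with edgeR. With DESeq2, an alternative fit, Ccnd2 (adjusted p = 0.0225), Ccnd3 (0.00190) and Cdk6 (0.0464) passed, as did Cdk4 (0.00740). Ccnd2 was 2.80-fold higher in Il2ra-detected DN than in DP cells of WT, 5.40-fold in the preleukemic library, 69.5-fold in T-ALL#1 (31.9 to 179.6, from 66 and 7 UMIs) and 2.97-fold in T-ALL#2 (log2 difference 2.70, SE 0.90, edgeR adjusted p = 0.206). Without T-ALL#1 it passed at 1.88 (edgeR adjusted p = 0.00183). Ccnd3 was 7.37-fold lower in WT, 1.95-fold in the preleukemic mouse, and 2.36-fold and 1.71-fold in the leukemias (-1.30, SE 0.36, edgeR adjusted p = 0.102), and it passed without WT at -0.90 (edgeR adjusted p = 0.00170). Cdk6 was 11.2-fold higher in WT and 7.03-fold in the preleukemic library but 1.57-fold and 1.32-fold in T-ALL#1 and T-ALL#2 (1.93, SE 0.79, edgeR adjusted p = 0.271). The intervals of the first pair (9.44 to 13.2 and 5.18 to 9.77) did not overlap those of the leukemias (1.33 to 1.85 and 1.04 to 1.69), and the difference between groups was not tested.

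Rb1 was lower in Il2ra-detected DN cells of every library, at 18.5 against 71.2 CPM in WT, 29.9 against 46.4 in the preleukemic library, 16.6 against 28.7 in T-ALL#1 and 16.99 against 20.7 in T-ALL#2 (-0.70, SE 0.25, edgeR adjusted p = 0.105). The WT value of 18.5 CPM rests on 6 UMIs. The remaining tested members had log2 differences of 0.85 (SE 0.46) for Ccnd1, -0.33 (SE 0.23) for Cdk2 and 0.42 (SE 0.47) for E2f1, with edgeR adjusted p = 0.290, 0.417 and 0.632. Of the partners list, 18 genes were tested, 0 were higher and 2 lower, E2f2 (fell by 1.64, SE 0.35, edgeR adjusted p = 0.0254) and Cdkn1b (fell by 0.70, SE 0.17, edgeR adjusted p = 0.0378). Of the replication list, 5 of 19 were higher and 0 lower, led by Mcm6 (1.24, SE 0.22, edgeR adjusted p = 0.0135) and Mcm5 (1.05, SE 0.22, edgeR adjusted p = 0.0262), subunits of the replicative helicase.

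Likeness to each member was described over 35 sums of at least 50 cells, by library, stage and cycling state, as the Pearson correlation of log2(CPM + 1) among 7678 genes. The sums share libraries and depth, so no test applies. The 3 genes most like Ccne2 were Birc5 (0.969), Pcna (0.963) and Hmgb2 (0.962), those most like Ccne1 were Lmnb1 (0.944), Ccna2 (0.942) and Slbp (0.940), and those most like E2f1 were Mcm2 (0.958), Rfc5 (0.958) and Pold1 (0.957). Cdk2 was most like Rpa1 (0.941), Srsf4 (0.928) and Cep128 (0.922), and Cdk4 most like Aimp2 (0.954), Pycrl (0.947) and Cct7 (0.940). Rpa1 and Pold1 encode proteins of DNA synthesis, whereas Cct7 is a chaperonin subunit.

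Ccnd2 was most like Smad7 (0.908), Gramd1b (0.908) and Bach2 (0.905). Ccnd3 was most like Wdr33 (0.916), Magi3 (0.908) and Cnot6 (0.907), and Ccnd1 most like Phykpl (0.895), Grn (0.893) and Adm (0.890). For Rb1 the genes were Stag1 (0.924), Cenpj (0.907) and Ppwd1 (0.900). Cdk6 had the lowest correlations, with Eef2k (0.843), Slc22a3 (0.821) and Tcrg-C4 (0.807), the last a constant region of the gamma T-cell receptor chain.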

How the data were processed

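Single cells of 4 FVB/N thymi were profiled on the 10x Genomics 3′ platform. The labels name more than 1 chemistry without saying which library used which, and a difference in chemistry between libraries cannot be told apart from the animals. The deposited matrices hold counts (UMIs per gene and barcode, not normalized), which the authors made with Cell Ranger, version 3.0.2 for WT, the preleukemic library and T-ALL#1 and version 4 for T-ALL#2 per the file headers, on build mm10 per the submitters' processing notes. The T-ALL#2 matrix holds 1791965 barcodes. Those with at least 3416 UMIs (1/10 of the 99th percentile of the 10000 largest barcodes) were taken as cells, 2700 in all. The filters kept 71.8% to 80.1% of the barcodes. No upper limit on genes was set and no doublets were removed, since the study's limit (mean plus 3 SD of genes) and the removal of cells with the highest scrublet scores (scanpy 1.11.5, 0.8% per 1000 barcodes) were run as alternatives.

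CPM values are summed UMIs of a gene per 1000000 UMIs of the same cells. Intervals are exact at 95% (Poisson for CPM, Clopper-Pearson for shares, conditional binomial for ratios), and cover counting error only. Differences between libraries were described at 2-fold or more among genes with at least 10 CPM in either library. Sums of cells per library were tested with edgeR 4.0.16 in R 4.3.3 (TMM, filterByExpr, robust quasi-likelihood fit, library as a block because both sums come from 1 animal), with the Benjamini-Hochberg method over all genes tested. P-values weigh the difference within animals against how much that difference varied over the 4 animals of 3 groups, with the variance moderated over genes. Each SE was computed as the absolute log2 difference divided by the square root of the F statistic of the edgeR test. On simulated counts with 50 genes at each of 4 fold changes the fit recovered the changed genes with few false calls. The simulation used the same fixed dispersion for both comparisons and changed only genes of higher counts. The data gave a biological coefficient of variation (spread beyond counting error) of 0.142 for cycling and 0.187 for stage. The simulated spread was below that of the stage comparison, so the simulation does not cover that fit or genes of low counts. Alternatives were DESeq2 1.42.0, no filter, no replicate block, leaving out libraries, thinning to 2000 UMIs with cells gated anew, other gates and other scalings.

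The members and gene lists were chosen with earlier results of these data known. Besides all 10 members, the rule named the 2 largest increases and 2 largest decreases past the threshold in each list and the 3 genes most like each member. Gate genes were left out of the tests. Gene positions are from GENCODE M21 (GRCm38), matched by identifier. No columns of other samples were present.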

Additional observations from a re-analysis of the deposited data

Results flagged for a closer look

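In 2 members the cycling difference had opposite directions between groups, with counting intervals clear of 0 in each library. These differences between groups were not tested, and the reason was not tested. For Cdk6, the log2 ratio of cycling over non-cycling cells was 0.54 in WT, -0.37 in the preleukemic library, and 0.25 and 0.23 in T-ALL#1 and T-ALL#2, so WT minus preleukemic was 0.91 and preleukemic minus the leukemic mean was -0.61. Thinned to 2000 UMIs, the Cdk6 values were -0.04, -0.40, 0.09 and 0.31. Within DP cells the preleukemic Cdk6 value was 0.74, and within Il2ra-detected DN cells WT stood at -0.78 and the preleukemic library at -0.29. For Rb1, the ratios were 0.16 in WT, -0.18 in the preleukemic library, and 0.16 and 0.49 in the leukemias, so WT minus preleukemic was 0.35 and preleukemic minus the leukemic mean was -0.51. Thinned to 2000 UMIs, the preleukemic Rb1 value was 0.46 and that of WT 0.33, so the opposite direction was not seen there. Thinning also changed the cells compared, since cycling cells were called anew, 732 in place of 1325 in the preleukemic mouse and 589 in place of 870 in WT.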

How the results depend on the processing

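Of the members' values in both fits, 188 kept their direction and side of the threshold under the alternatives, 18 lost the call, 13 gained it and 4 changed direction. Those 4 were Ccnd1 in cycling cells without the preleukemic library (0.012, in a range over the libraries left out of -0.32 to 0.012), Ccnd3 with the leukemias alone (-0.093), Cdk6 in Il2ra-detected DN cells (-0.083), and Cdk2 in the stage comparison of thinned cells (0.28). None of these 4 passed in the comparison named, with the main setting or with the alternative given. Cdk2 did pass in the other comparison, that of cycling cells. The causes were not tested.

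For cycling against non-cycling cells, the fit with no replicate block gave 737 genes higher, 185 lower and 4 members past the threshold. Thinned cells gave 1872 and 1919 genes, and Il2ra-detected DN cells 1654 and 1487. Leaving out a library gave 2170 to 3020 genes higher, 2214 to 3256 lower and 6 to 7 members. For the stage comparison, no replicate block gave 0 genes higher, 0 lower and 0 members with edgeR, with 768 genes at an unadjusted p under 0.05. The other settings gave 713 and 542 genes and 3 members with no filter, 29 and 51 genes with the leukemias alone, 85 genes lower in thinned cells, 128 genes higher and 3 members with all kept cells, 19 and 58 genes with cycling cells, and 4 members with DESeq2 (Ccnd2, Ccnd3, Cdk4 and Cdk6). Leaving out a library gave 4 to 341 genes higher, 3 to 221 lower and 0 to 2 members, the lowest counts being those without the preleukemic library.

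Members past 2-fold in both leukemias against the preleukemic library numbered 0 with TMM factors, 2 with the mean over cells, 3 in thinned cells, 2 in non-cycling cells, 0 in cycling cells, and 1 to 4 with a single leukemia. Against WT they numbered 4 with the mean over cells, 4 in non-cycling, 4 in cycling cells, and 2 to 5 with a single leukemia. Of the 18 pairwise differences of a member past 2-fold, all kept their direction in 126 values under alternatives, and 110 of these stayed past 2-fold. Ccne1, whose log2 difference of the preleukemic library against WT was -1.23, stood at -0.80 with the mean over cells and -0.15 in non-cycling cells. In cycling cells it stayed past 2-fold, at 20.0 CPM in the preleukemic library against 52.6 in WT. The number of cells, 54, limits the WT Il2ra-detected DN class, where Ccnd1 had 0 UMIs.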
